A study of Mus musculus with 6 samples.

Results

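Melanocytes of mouse skin were followed here through 10 genes of pigment synthesis and of the pigment cell lineage (Dct, Pmel, Tyr, Tyrp1, Mlana, Mitf, Slc45a2, Oca2, Gpnmb and Kitl). They were taken as every probe set that the platform annotation assigns to exactly 1 of these gene symbols, which gave 20 of the 45101 probe sets on the array, and all 10 genes had at least 1. RNA came from 3 Tcfap2c mutant and 3 control samples of skin at embryonic day 16.5 and was measured on 1-colour Affymetrix mouse arrays. Tcfap2c, now Tfap2c, encodes the transcription factor AP-2 gamma. The labels give no strain, allele, Cre driver or genotype of the controls, and the description field of the control samples also mentions the mutation, while their titles do not. The labels do not tell litters apart, and the p-values therefore describe how these 6 samples spread, which may be partly technical.

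Melanocytes descend from the neural crest, enter the epidermis as melanoblasts and settle in the hair follicles. Mitf is the transcription factor that drives their pigment genes, and many of its targets carry the M-box, an 11-letter element around the core CATGTG. Tyrosinase and its relatives Tyrp1 and Dct make melanin inside melanosomes, on fibrils of the protein Pmel, while the stem cell factor Kitl is made by surrounding skin cells and signals to the receptor Kit on melanoblasts. AP-2 factors bind variants of the palindrome GCCNNNGGC.

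The start-site regions of the enzyme genes are shown because they hold the letters through which these genes are known to share a regulator. The RefSeq promoter table (GRCm38.p6, 250 bases before to 50 after each start) matched 7 of the 10 genes in 9 windows. Pmel, Mlana and Slc45a2 were not matched. The longest stretch around CATGTG that the windows of Tyrp1 and Tyr share is AGTCATGTGCT, 11 letters long. Searched on both strands, it was found in 7 of all 32851 windows (0.0213%). The longest that Dct shares with both is GTCATGTGCT, which lies within it and occurs in 0.186% of windows. Both stretches were read from these genes, so their presence there is by construction. Each is printed as 30 bases on the gene's strand, 5′ to 3′, with the matched letters in capitals.
Tyrp1 (chr4:80834154-80834183, plus strand): gtggggagggAGTCATGTGCTgcctagtag
Tyr (chr7:87493517-87493546, minus strand): agaaaaagttAGTCATGTGCTttgcagaag
Dct (chr14:118052379-118052408, minus strand): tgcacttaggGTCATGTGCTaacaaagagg
The match began 49 bases before the start in Tyrp1, 24 in Tyr and 152 in Dct. The core CATGTG alone, on either strand, was in 14.2% of windows, including 1 of Oca2 and a further site in Dct. CACGTG, another core that Mitf binds, occurred in 7.15% of windows and in none of the 9. The AP-2 palindrome GCCNNNGGC occurred in 16.6% of windows, and among the 9 in that of Gpnmb and in 1 of Mitf. A match describes these letters only.

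Of the 20 probe sets, 14 of 9 genes were bright enough to be tested (mean over all arrays above the array median, a signal of about 114.5). The other 6, which include the only probe set of Oca2, had signals from 6.94 to 174.1. Fold changes are on the log2(signal + 24.48) scale, which understates those of dim probe sets. Several probe sets of a gene share its RNA and are not replicates.

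Facts of the whole series bear on these values. Mutant sample 1 stood apart, with a score of -65.1 on the first principal component against 0.35 to 28.3 in the others. It also carried transcripts of decidua and uterus, such as the hormone gene Prl8a2 at 14200 against at most 61.2 elsewhere. Across the whole table, 1 of 22518 probe sets passed an adjusted p of 0.05 in limma (0.00444%), and 39 (0.173%) did without mutant sample 1. Fewer cells of a type and less RNA per cell cannot be told apart in such bulk samples.

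The label was set beside 10 defining markers of melanocytes, 7 of which are also among the genes described, so this is no independent check. Of the 10 markers, 7 passed the filter, and Oca2, Gpr143 and Trpm1 did not. Sox10 was the only marker outside the genes described that passed, and it is also a marker of Schwann cells. Sox10, the transcription factor of neural crest derivatives that switches on Mitf, had signals of 171.6, 233.4 and 222.2 in mutant samples 1, 2 and 3, while the controls read 208.8, 222.0 and 184.9. Pigment cells of the eye use the same enzymes. Rpe65, the visual cycle enzyme of the retinal pigment epithelium, lay between 7.33 and 21.1, and Otx2, a regulator of that epithelium, between 1.21 and 11.0. Of 9 measured eye genes 8 did not pass the filter. The 1 that passed read 236.2, 72.1 and 110.9 in mutant samples 1, 2 and 3 and 189.7, 138.8 and 63.1 in controls. The part of eye tissue in the pigment gene values was not tested.

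The largest difference among the pigment genes was in Tyrp1, tyrosinase-related protein 1, a melanosomal enzyme of eumelanin synthesis. Its 3 probe sets gave similar log2 differences of -1.01, -1.09 and -1.02 (mutant minus control), and none passed the threshold after adjustment over the whole table. Probe set 1415862_at had signals of 88.0, 119.5 and 83.4 in mutant samples 1, 2 and 3. In control samples 1, 2 and 3 it had 271.5, 169.9 and 270.7. Every mutant sample therefore lay below every control sample. The mutant mean was 97.0 ± 19.7 and the control mean 237.3 ± 58.4 (SD, n = 3 each), 2.13-fold apart on the log2 scale used. The log2 difference had an SE of 0.26 and a 95% interval from -1.67 to -0.51 (limma, adjusted p = 0.673).

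Probe set 1415861_at of Tyrp1 gave the same order of groups. Its signals were 171.6, 194.2 and 84.4 in mutant samples 1, 2 and 3 and 271.7, 246.8 and 446.4 in the controls. The groups did not overlap, with mutant sample 3 lowest and control sample 3 highest. The interval of the difference ran from -1.73 to -0.28 (SE 0.32, limma adjusted p = 0.9999). For the third, 1439409_x_at, whose name ending marks probes that may also match other transcripts, the groups overlapped. It read 196.5, 28.5 and 99.7 in the mutant and 110.0, 224.7 and 336.6 in the control samples, with an interval from -2.22 to 0.18.

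Among the 14 tested probe sets, those 2 of Tyrp1 were the ones whose groups did not overlap, mutant lower, where 5.03% of all tested probe sets did so. They were also the ones at an unadjusted limma p under 0.05 (1.97% of all tested in that direction). More negative differences than that of 1415862_at were found in 0.178% of tested probe sets. 1415862_at and 1439409_x_at passed the filter only through the control samples, since their mutant means (6.91 and 6.82 on the log2 scale) lay below the limit of 7.12. With no filter, the limma adjusted p of 1415862_at was 0.9999. Without mutant sample 1 the 3 differences were -1.12 (1415861_at), -1.04 (1415862_at) and -1.50 (1439409_x_at), with adjusted p between 0.371 and 0.503 in limma.

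**Figure D1:**
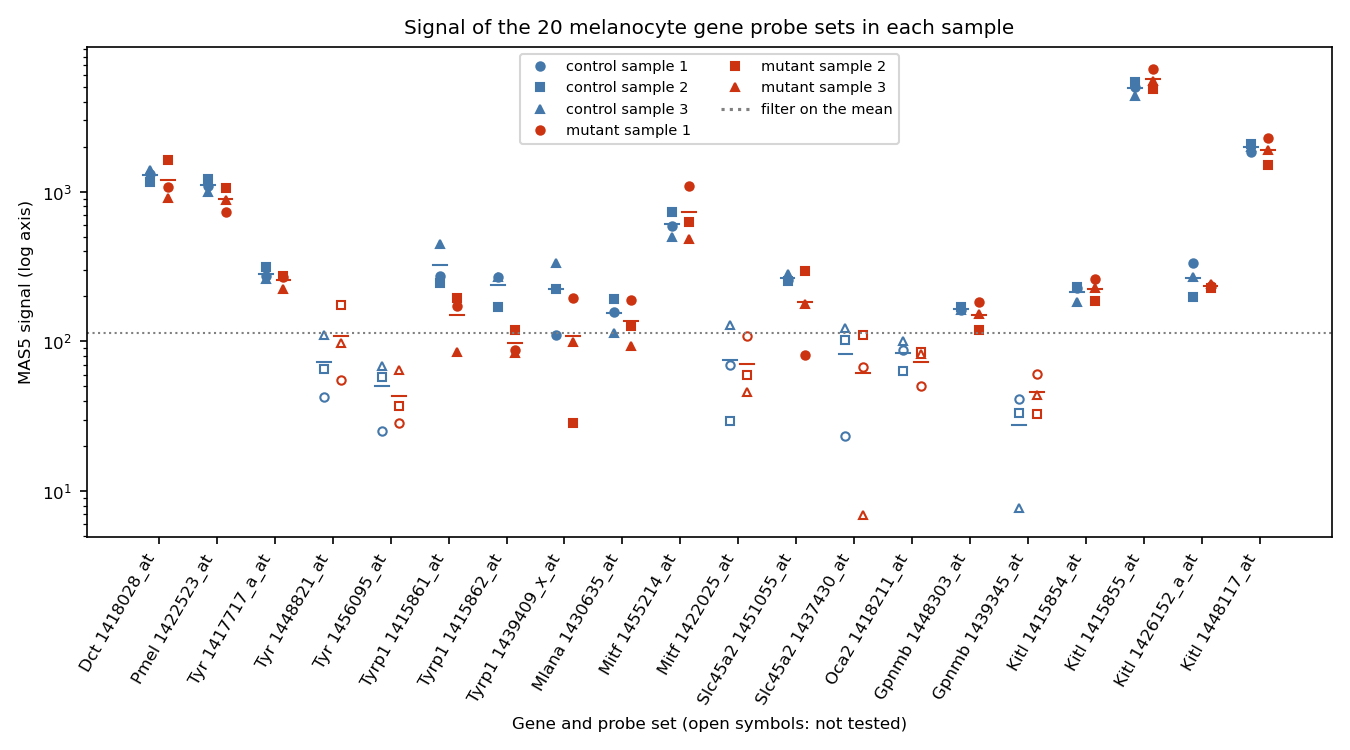
MAS5 signal (log axis) of the 20 melanocyte gene probe sets; blue symbols are the 3 control and red symbols the 3 mutant samples, short bars are group means, open symbols mark probe sets that were not tested, and the dotted line is the filter on the mean (114.5). For Tyrp1 1415861_at and 1415862_at all mutant samples lie below all control samples, while the groups overlap for every other probe set shown.

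Dct, dopachrome tautomerase, the enzyme that acts beside Tyrp1 and an early marker of melanoblasts, had signals of 1077, 1630 and 914.5 in mutant samples 1, 2 and 3. The controls read 1311, 1164 and 1403. Mutant sample 2 was the highest and mutant sample 3 the lowest of all 6, so the groups overlapped. The log2 difference was -0.14 with an interval from -0.61 to 0.34.

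Tyr, tyrosinase, the rate-limiting enzyme of melanin synthesis, read 271.0, 273.8 and 224.3 in the mutant and 272.6, 312.0 and 262.3 in the control samples by 1417717_a_at. The difference was -0.13 (SE 0.18, interval -0.54 to 0.28). Its other probe sets were dim and were not tested, and they gave 0.42 (1448821_at) and -0.13 (1456095_at).

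Pmel, the protein of the melanosome fibrils, read 730.0, 1060 and 887.2 in mutant samples 1, 2 and 3, against 1098, 1221 and 997.6 in the controls. Mutant samples 1 and 3 lay below all controls and mutant sample 2 between them. The means were 892.2 ± 164.8 and 1106 ± 112.0 (SD, n = 3 each), and the log2 difference of -0.31 had an interval from -0.70 to 0.08 (limma adjusted p = 0.9999).

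Mlana, a melanosomal membrane protein also called MART-1, ranged from 93.3 to 189.3 in the mutant group and from 113.5 to 192.8 in the control group, a log2 difference of -0.17 (SE 0.29). It was highest in control sample 2 and lowest in mutant sample 3.

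Slc45a2, a melanosomal transporter that keeps the melanosome lumen at a pH at which tyrosinase works, read 81.1, 294.3 and 178.2 in mutant samples 1, 2 and 3 by 1451055_at, against 255.7, 251.5 and 283.0 in controls. The controls lay close together, while the mutant samples held both the lowest and the highest value. The difference was -0.60 (SE 0.36, interval -1.41 to 0.21) and -0.18 without mutant sample 1. Its dim probe set 1437430_at gave -0.39 and was not tested. Oca2, a chloride channel of the melanosome, read 50.5, 85.0 and 82.2 in the mutant and 87.5, 63.3 and 100.7 in the control samples, all below the filter.

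Mitf, the regulator of these genes, read 1096, 630.2 and 481.5 in mutant samples 1, 2 and 3 by 1455214_at, and 586.6, 736.1 and 501.5 in controls. Mutant sample 1 was the highest and mutant sample 3 the lowest. The difference of 0.20 (SE 0.28) became -0.12 without mutant sample 1. Mitf is also made by mast cells and macrophages. In mutant sample 1 the macrophage receptor Csf1r was at 8353, against 3951 to 4899 in the other samples. The summed signal of 12 macrophage genes was 20060 there, against 10100 and 14160 in the other mutant samples and 12770 to 13700 in controls. Csf1r was the largest term of that sum, and the list did not follow it throughout. Lyz2, Cd68, Cd14, Mrc1, C1qb and Adgre1 of mutant sample 1 also lay above all controls. Its Fcgr1, C1qa and Tyrobp lay within the control range, and its Aif1 and C1qc below it. Averaged as log2, the list came to 9.82 for mutant sample 1, 9.07 for sample 2, 9.58 for sample 3 and 9.30 to 9.42 for controls. The part of mast cells and macrophages in the Mitf value was not tested. The dim Mitf probe set 1422025_at, not tested, differed by 0.0095.

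Gpnmb, a glycoprotein related to Pmel that both melanocytes and macrophages make, read 182.5, 118.7 and 151.6 in the mutant samples. The controls were within 161.3 to 168.7, inside the mutant range. The difference by 1448303_at was -0.12 (interval -0.63 to 0.38), and the dim 1439345_at, not tested, gave 0.48.

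Kitl, the ligand that melanoblasts need to survive and migrate, was measured by 4 probe sets with differences of 0.06 (1415854_at), 0.20 (1415855_at), -0.14 (1426152_a_at) and -0.07 (1448117_at). For 1415855_at the signals were 6579, 4863 and 5525 in mutant samples 1, 2 and 3 and 4975, 5410 and 4349 in controls, and its interval ran from -0.14 to 0.53. The groups overlapped for every Kitl probe set.

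**Figure D2:**
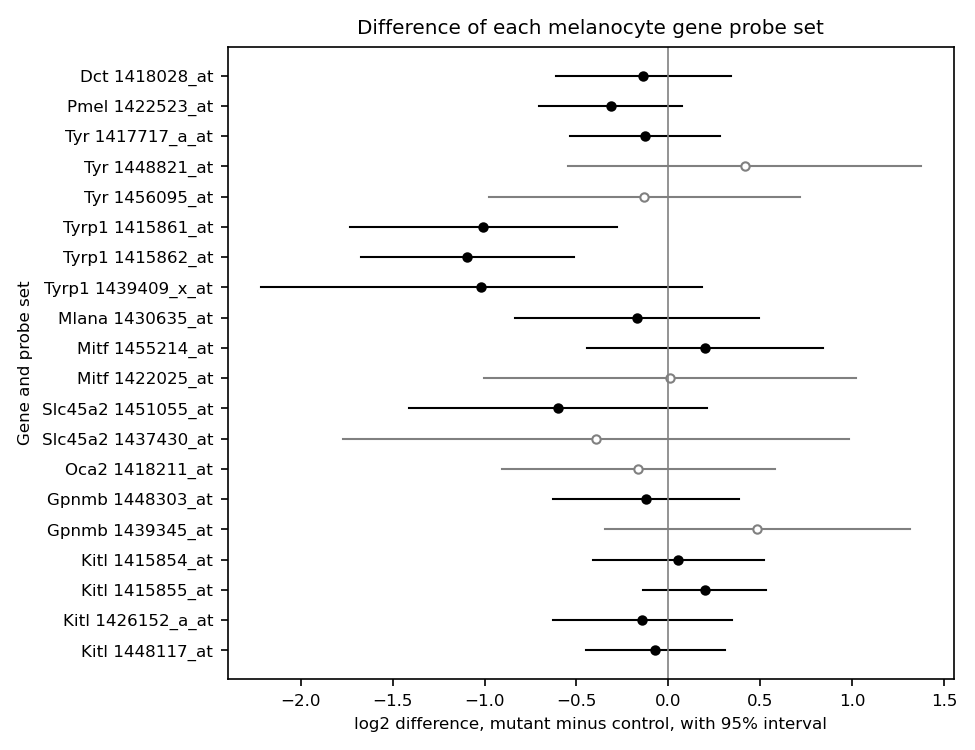
Log2 difference (mutant minus control) of each of the 20 probe sets with its 95% limma interval; black points were tested and open grey points, below the filter, come from the fit without a filter. The intervals of Tyrp1 1415861_at and 1415862_at lie below 0, and all others hold 0.

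Outside Tyrp1, 11 probe sets were tested, 8 of them with a negative difference, and the 95% interval of all 11 held 0. Over the 9 tested genes, each by its brightest probe set, 7 differences were negative and 2 positive, with a median of -0.14. Over all 11589 genes tested, 53.5% were negative and the median was -0.014. The lowest adjusted p of any of the 14 probe sets was 0.673 in limma, and 0 of 14 passed. With no filter all 20 were tested and 0 passed, where 0.00222% of all probe sets did. With arrays weighted by their quality, 0 of 14 passed against 0.471% of all tested, and 0 passed without mutant sample 1. With a block for the replicate number, 0 passed where 0.0355% of all tested did.

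By the mean of 6 pigment genes, the samples differed more within the mutant group than within the controls. This did not hold for Tyrp1 alone. The mean log2 signal of its 3 probe sets had an SD of 0.32 in the mutant and 0.39 in the control group. The mean log2 signal of the 6 pigment genes Dct, Pmel, Tyr, Tyrp1, Mlana and Slc45a2 was 8.33, 8.72 and 8.16 in mutant samples 1, 2 and 3, and 8.76, 8.81 and 8.82 in control samples 1, 2 and 3. Without Tyrp1 it was 8.47, 8.91 and 8.44 against 8.87, 8.95 and 8.80, and the groups overlapped. Mutant sample 3 was the lowest of all 6 for 5 of the 9 genes (Dct, Tyr, Tyrp1, Mlana and Mitf). Markers of basal keratinocytes, the cells among which melanoblasts lie, had a mean log2 signal of 11.2, 11.9 and 11.4 in mutant samples 1, 2 and 3 and of 11.7 to 11.8 in controls. Summed over these markers, mutant samples 1, 2 and 3 gave signals of 36470, 67530 and 55060 and the controls 54870 to 60300, so by the sum mutant sample 3 lay within the control range. In that sample the keratins Krt5 (16960 against 18350 to 21250) and Krt14 (14440 against 15740 to 18500) lay below all controls. So did the hemidesmosome integrin Itgb4 (45.8 against 178.4 to 241.8) and the laminin subunit Lamb3 (439.2 against 657.6 to 954.7). The keratin Krt15 lay above all controls (14030 against 10200 to 12410), while Trp63, Itga6 and Col17a1 lay within the control range. These genes were named after their values were seen. All 8 genes had negative differences (0 of 8 passed), and 3 of 8 were negative without mutant sample 1. The part of keratinocyte content in the pigment gene values was not tested.

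Tyrp1 was next set against the other pigment genes of the same sample. Only the change between groups has meaning here, since signals of different probe sets are not on 1 scale. The mean of its 3 probe sets minus Dct was -2.70, -3.80 and -3.05 in mutant samples 1, 2 and 3 and -2.55, -2.33 and -1.95 in controls. The groups did not overlap, although mutant sample 1 and control sample 1 were close. The group means differed by -0.90. Against Tyr they differed by -0.91 (groups apart) and against Pmel by -0.73 (groups overlapping). Pmel minus Dct differed by -0.18 and Slc45a2 minus Dct by -0.47, both with groups overlapping. These distances restate the low Tyrp1 values for which they were chosen, and 2 of its 3 probe sets passed the filter only through the controls, so they are given as a description, with no test.

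**Figure D3:**
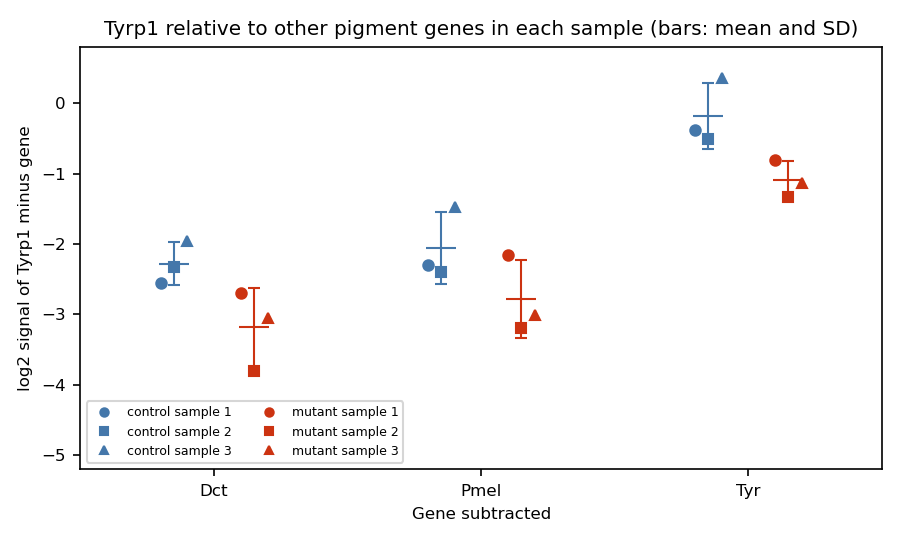
Mean log2 signal of the 3 Tyrp1 probe sets minus that of Dct, Pmel or Tyr in the same sample; blue symbols are controls, red symbols mutants, and bars show mean and SD (n = 3 each). Control means are -2.28, -2.06 and -0.18 and mutant means -3.18, -2.78 and -1.09, with the groups apart for Dct and Tyr and overlapping for Pmel.

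Genes that specify melanocytes or carry their signals were described from a list of 22. Of these 21 had a probe set and 19 were tested, 10 with negative and 9 with positive differences and a median of -0.00086. At an adjusted p of 0.05 in limma 0 of 19 passed, and 0 had an unadjusted p under 0.05 (3.42% of all genes). Their groups overlapped in every case (8.02% of all genes did not overlap).

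Among the receptors and ligands of that list, Kit, the receptor for Kitl, read 1833, 848.6 and 986.8 in the mutant and 1578, 1250 and 739.1 in the control samples, a difference of 0.02 (SE 0.33). Mast cells make Kit too, and 7 of 8 tested mast cell genes had negative differences (median -0.13, 0 passed), where 53.5% of all genes did. The 8 include Kit itself, which was the 1 with a positive difference. Their summed signals were 33150 to 35110 in mutant and 34130 to 41790 in control samples. Groups were apart for 1 of the 8, Cma1, lower in the mutant samples, where 8.02% of all genes had groups apart in either direction. Ednrb, the endothelin receptor of early melanoblasts, differed by 0.28 (SE 0.20) and its ligand Edn3 by -0.01. Erbb3, a neuregulin receptor of neural crest cells, differed by 0.16 and Met, the receptor for hepatocyte growth factor, by 0.23. Mc1r, the melanocortin receptor that favours eumelanin, was below the filter at 66.0 to 156.0.

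Of the transcription factors, Sox10 differed by 0.02 (SE 0.20). Pax3, which acts with Sox10 on Mitf, differed by 0.26 (SE 0.26). Sox9, a relative of Sox10, had the smallest p of the list, with 173.8, 174.1 and 201.0 in the mutant and 257.6, 189.7 and 272.5 in the control samples (difference -0.34, SE 0.21, limma adjusted p = 0.9999). The AP-2 relatives Tfap2a and Tfap2b, of which Tfap2a acts in melanoblasts, differed by -0.13 and -0.16.

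The machinery that builds and moves melanosomes is shared with lysosomes of other cells, so its signals come from all of the skin. Of 44 listed genes 40 had a probe set and 35 were tested, 23 with negative and 12 with positive differences and a median of -0.034, and 0 passed. Groups were apart for 2 of 35, Ap3b1 and Kif13a, both lower in the mutant samples, where 8.02% of all genes had groups apart, so the count does not exceed that background. Ap3b1, a subunit of the adaptor that sorts tyrosinase to melanosomes, read 1888, 1801 and 1885 against 2175, 2023 and 2168, a difference of -0.19 (limma adjusted p = 0.9999). Kif13a, a kinesin that carries Tyrp1 towards melanosomes, differed by -0.13 (limma adjusted p = 0.9999) and was named after its values were seen. Ap1m1, a subunit of another adaptor, differed by 0.30 and Ostm1, a lysosomal protein whose loss also changes coat colour, by 0.25. Mlph, melanophilin, which links melanosomes to myosin Va, was at 433.5 in mutant sample 1 and at 85.0 to 134.8 in the other samples. Its difference of 0.71 (limma adjusted p = 0.9999) became 0.12 without mutant sample 1. It passed the filter only through the mutant group, since its control mean (6.95 on the log2 scale) lay below the limit of 7.12.

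**Figure D4:**
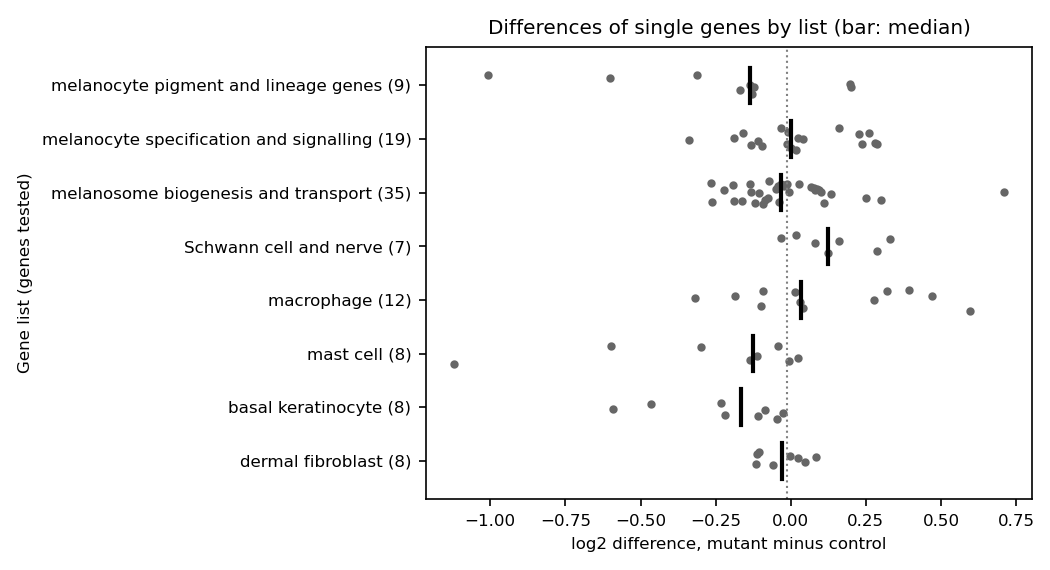
Log2 difference (mutant minus control) of single genes, each point 1 tested gene by its brightest probe set, in the melanocyte lists and in marker lists of other skin cells; bars are list medians and the dotted line is the median of all genes (-0.014). Tyrp1, at -1.01, is the lowest point of the first row, and the list medians lie between -0.17 and 0.12.

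Schwann cells share the neural crest origin of melanocytes. Of their 7 tested markers, 6 had positive and 1 negative differences with a median of 0.12, and 0 passed. Over all genes tested, 53.5% were negative. Erbb3, Ngfr, Foxd3 and Sox10 are also in the list of melanocyte specification and signalling, so the lists are not independent. The dim markers S100b and Cdh19, not tested, went the other way (-0.30 and -0.14). For S100b every mutant sample lay below every control sample. Mbp, a myelin protein, differed by 0.33 and Fabp7, a marker of Schwann cell precursors, by 0.12. The median was -0.0052 without control sample 3. The median of 12 macrophage genes was 0.036, with 8 positive and 4 negative, and that of 8 dermal fibroblast genes was -0.030.

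Other genes were compared with the mean log2 signal of the 6 pigment genes over the 6 arrays. Those that followed this mean most closely were Clmn (Pearson r = 0.997), Ephb6 (r = 0.996) and Zfp954 (r = 0.988), out of 11580 others tested. The 6 pigment genes themselves followed it less closely, with r from 0.28 (Mlana) to 0.87 (Tyrp1). With 6 arrays, 136 genes reached an r above 0.9, so this is a description of sample order only. Ephb6, an ephrin receptor that lacks kinase activity, read 413.4, 729.9 and 353.8 in the mutant and 830.3, 852.2 and 890.1 in the control samples.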

How the data were processed

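The authors deposited linear MAS5 intensity values for every probe set, from 1 array per sample; MAS5 is named without a version in the submitters' processing notes. The authors' deposited intensity had the same mean of 500 in every column after trimming at both ends, so arrays were scaled 1 by 1. Extraction used a Qiagen kit and labelling followed Affymetrix protocols, per the labels' protocols.

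Signals were taken to log2(signal + 24.48), the pseudocount being the 20th percentile of all values. The 64 control probe sets were left out, and 22518 of 45037 others passed the filter. Groups came from the titles. The test was that of limma 3.58.1 (R 4.3.3), two-sided, with lmFit and a trended eBayes, and intervals are 95%. P-values were adjusted by Benjamini-Hochberg across the 22518 probe sets and called at 0.05. The script was tested on simulated data. Genes were named from 34958 probe sets with 1 symbol (932 had several and 9211 none), of which 34754 matched RefSeq by gene identifier. Genes of the lists were represented by their brightest tested probe set.

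The genes and lists were chosen with earlier results of these data known. Named were all probe sets of the 10 genes, up to 4 genes per pathway list with the smallest p, Sox10, Kit, Ednrb, Pax3, Edn3 and Mc1r, up to 3 genes per marker list, and the 3 genes most like the pigment genes. Further AP-2 genes and Kif13a fall outside this rule. So do the genes beyond 3 named from each of the macrophage, basal keratinocyte and Schwann cell lists, which were added with their values known. Alternatives were other pseudocounts, filters, normalizations, variance models and array weights, a replicate block, and each sample left out. Figures were drawn with matplotlib 3.10.9.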

Additional observations from a re-analysis of the deposited data

How the results depend on the processing

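No probe set of the 10 genes passed an adjusted p of 0.05 in limma under any alternative run; the lowest, 0.0617, was that of Tyrp1 1415862_at with array weights, where 106 probe sets passed in the whole table. Mutant sample 3 had a weight of 3.13 there and mutant sample 1 one of 0.257. Tyrp1 differences stayed negative throughout, from -1.41 to -0.70 (1415861_at), -1.30 to -0.77 (1415862_at) and -1.50 to -0.47 (1439409_x_at). The median over the genes was -0.29 with array weights and between -0.18 (without control sample 3, and likewise without mutant sample 1) and -0.044 (without mutant sample 3) with 1 sample left out. Leaving out 1 sample gave 1 to 39 passing probe sets in the whole table, namely 39 when mutant sample 1 was dropped, 3 for control sample 2 and 2 for mutant sample 2.

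A block for the replicate number gave 8 passing probe sets, none of these genes. The correlations of deviations between samples with the same number were -0.0525, -0.0735 and 0.115, and those of other pairs ran from -0.177 to 0.172. Mutant sample 3 correlated best with the control of its own number, while mutant samples 1 and 2 did not. Deviations around means of 3 samples cannot show or exclude pairing.

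Of 244 values of single probe sets under alternatives, 9 in 7 probe sets had the other sign, none past the threshold, and the cause was not tested. With 1 sample left out, Dct ranged from -0.37 to 0.039 and Mlana from -0.40 to 0.034, positive without mutant sample 3. Mitf ranged from -0.12 (without mutant sample 1) to 0.45, and was at -0.19 with array weights. Gpnmb ranged from -0.25 to 0.016 and Kitl 1448117_at from -0.21 to 0.083, positive without mutant sample 2. Kitl 1415854_at ranged from -0.048 to 0.17, negative without mutant sample 1 or control sample 3 (-0.043), and Kitl 1426152_a_at from -0.32 to 0.022, positive without control sample 1. The number of arrays limits the precision, and no detection calls were used.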
